A study of Bos taurus with 13 samples.

Results

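The annexins are a family of calcium-dependent proteins that bind the negatively charged phospholipids of cell membranes. They were followed here through 8 genes, *ANXA1*, *ANXA2*, *ANXA3*, *ANXA4*, *ANXA5*, *ANXA6*, *ANXA7* and *ANXA11*, which were chosen by gene name among the 16095 named genes counted. RNA was sequenced from whole blood of 13 lactating dairy cows of the breed that the labels call Italian Red Pied (Italian Simmental). Of these, 7 were in the high milk cortisol group (replicates 1 to 7) and 6 in the low group (replicates 8 to 13). The groups are the upper and lower ends of a ranking by milk cortisol within 1 herd, and the cortisol value of each cow was not used here. Blood was collected into PAXgene tubes without sorting of cells and without removal of globin RNA. Each library is 1 cow, so the spread given below is that between cows.

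All annexins share a conserved core that binds membrane lipids when calcium rises, and they differ in the tail that precedes it. In blood they are known for work at membranes, such as granule fusion, repair of torn plasma membrane and recognition of phosphatidylserine on dying cells. *ANXA1* (annexin A1, once called lipocortin) is the member best known from the study of stress hormones, because glucocorticoids release and induce it in leukocytes and it restrains inflammation and phospholipase A2 activity.

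The libraries held between 11045599 and 28124575 counts over named genes. Of the 16095 named genes, 11033 had enough counts to be tested and all 8 annexins were among them. The lowest annexin count in any cow was 451, for *ANXA7*, and the highest was 33153, for *ANXA1*, so counting error was small beside the differences between cows. Markers of 9 blood cell types were detected in every list, and no counted marker was at 0 in every cow. The erythroid markers *AHSP* and *SLC4A1* and the plasma cell marker *SDC1* did not pass the filter. The plasma cell score thus rests on 4 of 6 listed genes. Among the markers, haemoglobin genes took between 0.0114% and 0.815% of the named counts. A marker score is the mean of the centred log2 CPM of the tested genes of a list. The erythroid score was higher in the high group (exact two-sided permutation *p* = 0.021), and the score of the other cell types had exact *p* values between 0.189 and 0.826.

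On the UMD3.1 gene models used for the counts, each annexin was a single locus with 13 to 26 exon entries, where an entry can be an exon of any transcript. *ANXA1* lies on chromosome 8 (49624473 to 49642916, plus strand), *ANXA2* on chromosome 10 (49860062 to 49904536, plus) and *ANXA4* on chromosome 11 (68070487 to 68144492, plus). *ANXA5* (3542635 to 3575330, plus) and *ANXA3* (95065256 to 95136945, plus) share chromosome 6, far from each other. *ANXA6*, whose protein carries the core in duplicate, lies on chromosome 7 (64359563 to 64406299, minus) and had the most exon entries, 26. *ANXA7* (29552050 to 29573976, minus) and *ANXA11* (35318690 to 35360793, plus) are both on chromosome 28. The exons and the span of none of the 8 genes overlapped those of another named gene, so overlap with a named gene did not affect their counts. Reads shared with copies of an annexin elsewhere in the genome were not tested.

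Levels of different genes were compared as RPKM (reads scaled to library size and to 1 kilobase of exon), which corrects for the length of the gene model. *ANXA1* was at 765 ± 176 RPKM (SD, n = 13), above 99.1% of the genes tested. Next came *ANXA2*, a membrane and cytoskeleton linker that binds plasminogen in complex with S100A10, at 702 ± 173 RPKM. Thus the pair stood among the most abundant transcripts of blood, and together they took between 43.0% and 57.8% of all annexin reads in a cow. *ANXA6*, a lymphocyte and endosome annexin, was at 272 ± 56.7 RPKM and *ANXA3*, a protein of neutrophil granules, at 214 ± 44.0 RPKM. *ANXA5*, the phosphatidylserine binder that is used as a probe for apoptotic cells, was at 169 ± 30.1 RPKM, level with *ANXA11*, which binds the calcium sensor PDCD6, at 167 ± 18.3 RPKM. *ANXA4*, a membrane-associated annexin common in epithelia, was lower at 47.6 ± 9.90 RPKM. *ANXA7* (synexin), which promotes the fusion of granules, was the lowest at 28.7 ± 5.16 RPKM and still lay above 69.9% of the genes tested.

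Of the 7 neighbouring pairs in this order, 5 differed within cows by an exact two-sided sign-flip permutation test with Benjamini-Hochberg adjustment. *ANXA2* exceeded *ANXA6* 2.56-fold, *ANXA11* exceeded *ANXA4* 3.56-fold and *ANXA4* exceeded *ANXA7* 1.65-fold, each in 13 of 13 cows with exact *p* = 0.00024, the smallest value that 13 cows allow. The steps from *ANXA2* to *ANXA6* and from *ANXA11* to *ANXA4* set apart an abundant pair, a middle group of 4 and a low pair. The members of the low pair differed from each other as well. The steps inside the middle group were smaller, with *ANXA6* above *ANXA3* in 10 of 13 cows (1.27-fold, exact *p* = 0.0161) and *ANXA3* above *ANXA5* in 10 of 13 (1.26-fold, exact *p* = 0.00391). *ANXA1* and *ANXA2* did not differ beyond their spread (mean log2 difference 0.12 ± 0.58 SD, exact *p* = 0.456), and *ANXA1* was the higher of these in 6 of 13 cows. Likewise *ANXA5* and *ANXA11* did not differ (mean log2 difference 0.01 ± 0.27 SD, exact *p* = 0.917). Without the division by gene length, *ANXA11*, *ANXA5* and *ANXA3* changed places within the middle group. There *ANXA5* exceeded *ANXA3* in 10 of 13 cows (1.23-fold, exact *p* = 0.0112), the reverse of their order per length, so that step depends on the length correction. Without this correction *ANXA2* exceeded *ANXA6* 1.43-fold and *ANXA6* exceeded *ANXA11* 1.65-fold, each in 13 of 13 cows. Where the middle group begins thus depends on the length correction too.

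**Figure D1:**
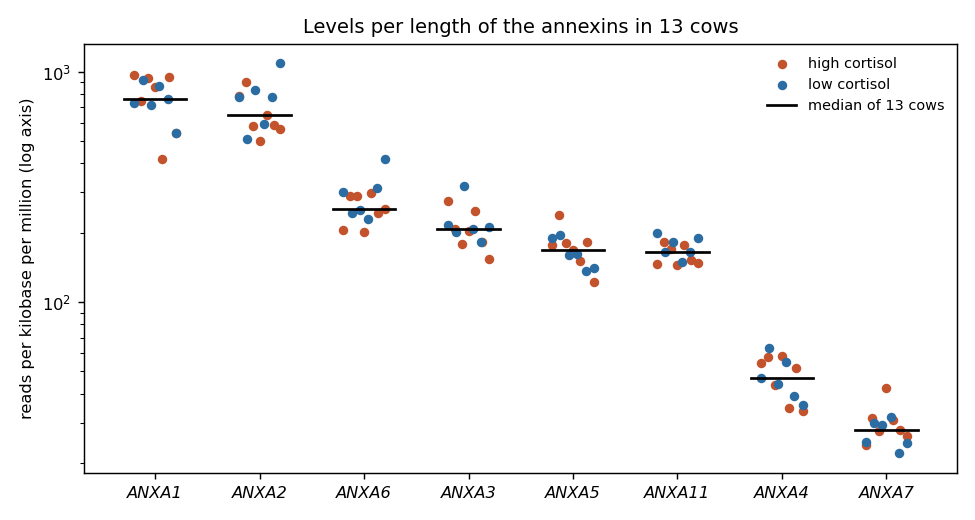
Level of each annexin in each cow in RPKM (vertical log axis). Points are cows, coloured by milk cortisol group, and lines are medians of 13 cows. The median fell from 763 for *ANXA1* and 649 for *ANXA2* to 27.9 for *ANXA7*, and cows of both groups were mixed within each gene.

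The annexins differed in how much they varied between cows. *ANXA1* spread most, by 2.31-fold between the lowest and the highest cow, with an SD of log2 CPM of 0.37. *ANXA2* (2.17-fold), *ANXA3* (2.09-fold) and *ANXA6* (2.08-fold) followed. *ANXA11* was the steadiest, since its highest cow was 1.38-fold above its lowest and only 9.04% of the genes tested had a smaller SD. The median SD of log2 CPM was 0.28 over the annexins, 0.31 over all genes tested and 0.22 over the 3534 genes within the annexins' range of mean CPM. The abundant *ANXA1* therefore varied more than 62.7% of the genes, while *ANXA11*, with lower counts, varied little.

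The question of the design was whether annexin levels in blood differ between cows with high and low milk cortisol. No annexin was over- or under-expressed in the high group at an adjusted *p* below 0.05 (edgeR quasi-likelihood test over 11033 genes, 0 of 8, with a background of 0% of genes called). At an unadjusted *p* below 0.05 the count was again 0 of 8, while 231 of all genes (2.09%) passed, 0.934% higher and 1.16% lower in the high group. Adjusted *p* was 0.998 for each annexin. Because whole blood is a mixture, fewer cells of a type and less RNA per cell cannot be told apart in any of these values.

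*ANXA1*, the glucocorticoid-linked member, ranged from 585 to 1353 CPM (counts scaled to library size) in the high group, with a median of 1195, and from 757 to 1284 in the low group, with a median of 1045. The groups overlapped over nearly the whole range, and the lowest cow and the highest cow were both in the high group. Mean CPM was 1080.3 ± 304 (SD, n = 7) with high and 1058 ± 185 (SD, n = 6) with low cortisol, and the log2 fold change was 0.03 (SE 0.19, edgeR). Its 95% interval ran from -0.37 to 0.43, so a change within these bounds was not excluded with these cows. The lowest *ANXA1* values of the high group, 585 and 753 CPM, were those of replicates 5 and 7.

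*ANXA2* ranged from 689.7 to 1248 CPM in the high group (median 807) and from 704 to 1496 CPM in the low group (median 1067). It was lower on average in the high group (log2 fold change -0.22, SE 0.17, exact permutation *p* = 0.288), with 2 of 7 high-group cows above the low-group median. Its level was negatively correlated with the log2 share of haemoglobin reads over the 13 cows (Pearson's *r* = -0.69, permutation *p* = 0.00851; Spearman's rho = -0.73, permutation *p* = 0.00614; 1 of 24 relations to technical measures computed, unadjusted). The relation was -0.83 without high-group replicates 5 and 7, -0.66 within the high group and -0.93 within the low group. With that share as a covariate the log2 fold change of *ANXA2* was 0.13 and that of *ANXA3* 0.085, so both changed sign, and the part of red cell RNA in these differences was not tested. The 6 tested of 8 listed erythroid markers summed to between 420.1 and 7865 CPM in the high group and between 158 and 596 CPM in the low group. With the score of these markers the relation of *ANXA2* was weaker (*r* = -0.47, permutation *p* = 0.104; rho = -0.52, permutation *p* = 0.0751).

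*ANXA6* ranged from 500.1 to 737 CPM in the high group (median 626) and from 571 to 1039 CPM in the low group (median 685). Its mean was lower in the high group (log2 fold change -0.21, SE 0.15, exact permutation *p* = 0.235). The highest value, 1039 CPM, was that of low-group replicate 13, which also had the highest *ANXA2* (1496 CPM). Without this cow the log2 fold change was -0.078 for *ANXA6* and -0.094 for *ANXA2*. The mean of *ANXA11* was also lower in the high group, with 386 ± 38.0 CPM (SD, n = 7) against 423 ± 45.5 CPM (SD, n = 6) in the cows with low cortisol. Its log2 fold change was -0.13 (SE 0.10, exact permutation *p* = 0.140) with the narrowest interval of the family, -0.34 to 0.08.

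*ANXA3* ranged from 212 to 380 CPM in the high group (median 282) and from 253 to 443 CPM in the low group (median 291), and its log2 fold change was -0.11 (SE 0.15). *ANXA4* ranged from 69.2 to 119.8 CPM in the high group (median 106) and from 73.2 to 129 CPM in the low group (median 93.4), with a log2 fold change of 0.01 (SE 0.16). *ANXA5* ranged from 262 to 512 CPM in the high group (median 379) and from 295 to 422 CPM in the low group (median 346), with a log2 fold change of 0.08 (SE 0.14). In these genes the groups overlapped and the means differed by less than the SD of either group. *ANXA7* ranged from 44.3 to 78.1 CPM in the high group (median 51.4) and from 40.7 to 58.5 CPM in the low group (median 49.8), with a log2 fold change of 0.15 (SE 0.13, exact permutation *p* = 0.325). That of *ANXA7* was 0.046 without high-group replicate 4, the cow at 78.1 CPM.

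**Figure D2:**
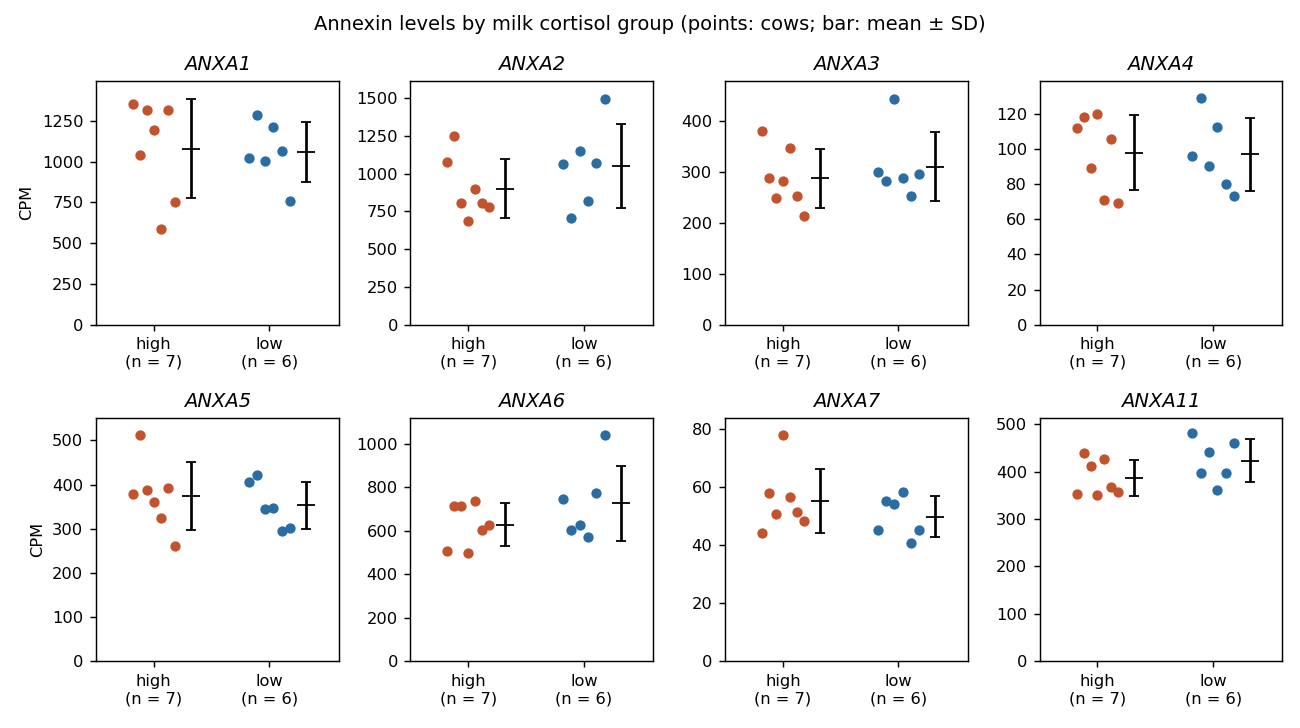
CPM of each annexin in the high group (n = 7) and the low group (n = 6). Points are cows and bars are mean ± SD; each panel has its own vertical axis, which starts at 0. The groups overlap in all 8 panels, and single cows stand high in *ANXA3* (443 CPM, low group) and *ANXA7* (78.1 CPM, high group).

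The median log2 fold change was -0.05 over the annexins and 0.01 over all genes tested. The median size without its sign was 0.12 and 0.11, respectively. Thus the annexins differed between the groups about as much as the median gene. Their log2 fold changes were positive for *ANXA1*, *ANXA4*, *ANXA5* and *ANXA7* and negative for the other members, and *ANXA1* was at -0.0050 with limma-voom.

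**Figure D3:**
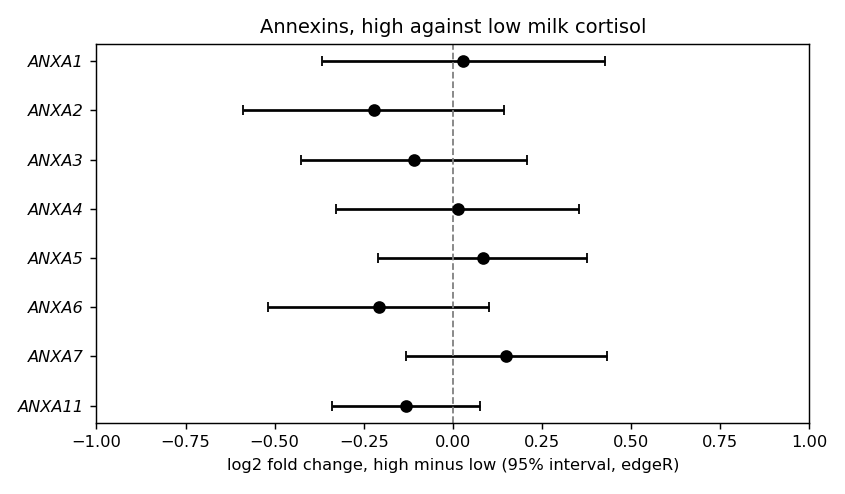
Log2 fold change of each annexin, high minus low, with its 95% interval (edgeR). All 8 intervals include 0, and they reach from -0.59 (*ANXA2*) to 0.43 (*ANXA1* and *ANXA7*).

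Genes of 9 lists, called partner genes here for short, were then read in the same fit. Of 65 listed genes, 54 were counted and 48 tested. Of those tested, 10 belong to a general glucocorticoid-response list and 9 to a general interferon-response list, so they are not annexin partners in a strict sense. None passed the adjusted threshold, 0 of 48 against the background of 0%, and 2 of 48 had an unadjusted *p* below 0.05, against 2.09% of all genes. Both were interferon-induced genes with lower means in the high group, *Mx1* (log2 fold change -1.11, SE 0.43) and *IFI44* (-0.62, SE 0.29), and their exact permutation *p* values were 0.0763 and 0.0973. All 9 tested genes of the interferon list had a negative log2 fold change, the smallest in size being *IFI44L* at -0.36. Their score had an exact permutation *p* of 0.0851 between the groups. The 9 genes were measured in the same cows, so they are not 9 separate results. The count of 2 at an unadjusted *p* below 0.05 rested on single cows. It was 10 without high-group replicate 5, 4 without low-group replicate 13 and 0 without high-group replicate 4, where 363, 197 and 215 of all genes passed.

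Among the S100 proteins, the calcium-binding partners of the annexin tails, *S100A10* averaged 613 ± 104 CPM (SD, n = 7) with high and 630.0 ± 97.0 CPM (SD, n = 6) with low cortisol. S100A10 holds *ANXA2* in a complex at the membrane. Per length *S100A10* (1028 RPKM) exceeded *ANXA2* (702 RPKM) on average, which was not tested. The 4 tested genes of this list had log2 fold changes between -0.55 (*S100B*) and 0.04 (*S100A4*). Among the receptors, *TLR2* was at -0.0024 and *PLGRKT*, a plasminogen receptor, at 0.16 on the log2 scale. Of the binding partners, *SRI* (sorcin, which binds annexin A7) was at -0.12 and *KDR* at 0.87, the latter at only 1.25 and 0.667 CPM in the high and low group. *PLG* had no count in any of the 13 cows, and *PLAT* did not pass the filter.

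Genes of the phospholipase A2 list lay between -0.12 (*PLAA*, for a phospholipase A2-activating protein) and 0.08 (*PLA2G4A*, whose product releases arachidonic acid). Genes that expose or turn in phosphatidylserine, the lipid that annexin A5 binds, lay between -0.11 (*XKR8*, a scramblase) and 0.38 (*ATP11A*, a flippase). Of the 10 membrane repair genes, 8 had a lower mean level in the high group, from *DYSF* (dysferlin) at -0.32 to *CPNE3* (a copine) at 0.23. The smallest unadjusted *p* of this list was 0.15 (edgeR), and the median log2 fold change of all genes was 0.01. The share of all genes with a lower mean was not computed, so the count of 8 is a description. The 10 glucocorticoid-response genes had 5 positive and 5 negative values, from *DUSP1* at -0.28 to *ZBTB16* at 0.58. Of the remaining annexins, *ANXA9* had low levels, at 2.35 ± 1.23 CPM (SD, n = 7) with high and 2.60 ± 0.480 CPM (SD, n = 6) with low cortisol. *ANXA13* had 19 counts over all cows, and *ANXA10* had none.

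Co-variation of the annexins across the 13 cows was measured for all 28 pairs. A pair was counted when each gene varied with the other at an adjusted *p* below 0.05 in an edgeR fit over all genes. No pair passed in both directions, and 4 pairs passed in 1 direction. Among the pairs, 16 had a positive and 12 a negative Pearson's *r*. The median *r* was 0.08, and the median size without its sign was 0.30, against 0.31 over all pairs of tested genes. In size, the correlations of the annexins were thus close to those of any pair of genes.

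*ANXA1* and *ANXA4* had the highest correlation (*r* = 0.79, permutation *p* = 0.00098; rho = 0.62, permutation *p* = 0.0268). Their adjusted *p* values were 0.0533 for *ANXA4* with *ANXA1* as the covariate and 0.0459 the other way, where 1.54% of genes varied positively with *ANXA4*. The lowest values of both genes were in the same 3 cows, high-group replicates 5 and 7 and low-group replicate 13. Without high-group replicates 5 and 7 the correlation was 0.65, and it was 0.78 within the high group and 0.87 within the low group. *ANXA4* and *ANXA5* were also correlated (*r* = 0.78, permutation *p* = 0.00133; rho = 0.75, permutation *p* = 0.00471), but their adjusted *p* values were 0.0543 and 0.232.

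Another set was formed by *ANXA6*, *ANXA11* and *ANXA2*. In it *ANXA6* and *ANXA11* had the highest correlation (*r* = 0.76, permutation *p* = 0.00153; rho = 0.74, permutation *p* = 0.00507). Their adjusted *p* was 0.0159 with *ANXA11* as the covariate, where 6.93% of all genes varied positively, and 0.0601 with *ANXA6*, where 3.72% did. The relation was 0.71 without high-group replicate 4 and low-group replicate 13, 0.89 within the high group and 0.60 within the low group. *ANXA2* correlated with both, at *r* = 0.64 with *ANXA6* (permutation *p* = 0.0160; rho = 0.47, permutation *p* = 0.105) and *r* = 0.64 with *ANXA11* (permutation *p* = 0.0184; rho = 0.58, permutation *p* = 0.0394). The *ANXA2* and *ANXA6* relation fell to 0.34 without high-group replicate 2 and low-group replicate 13, so it rested on these cows, and its adjusted *p* was 0.0404 with *ANXA2* as the covariate (5.87% of all genes) and 0.0517 with *ANXA6*. The strongest negative pair was *ANXA4* and *ANXA6* (*r* = -0.62, permutation *p* = 0.0204; rho = -0.66, permutation *p* = 0.0173), with adjusted *p* values of 0.1 and 0.0596. *ANXA3* had no correlation above 0.42 in size with any other annexin.

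Most annexins were correlated with the main axis of variation of the blood transcriptome, which took 29.0% of the variance and on which high-group replicate 4 and low-group replicate 13 were the ends. *ANXA2* (*r* = 0.76 with the axis), *ANXA6* (0.75) and *ANXA11* (0.70) lay on 1 side and *ANXA1* (-0.60), *ANXA4* (-0.62) and *ANXA7* (-0.64) on the other. *ANXA3* (0.28) and *ANXA5* (-0.17) were less correlated with it. *ANXA7* was at -0.05 when the cows at both ends were left out. The annexins contribute to that axis, so these values are a description. Pearson's *r* with the log10 of the named counts was between -0.37 and 0.29, with no permutation *p* under 0.216. By rank, *ANXA3* had the largest relation to depth (rho = 0.54, permutation *p* = 0.0605).

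**Figure D4:**
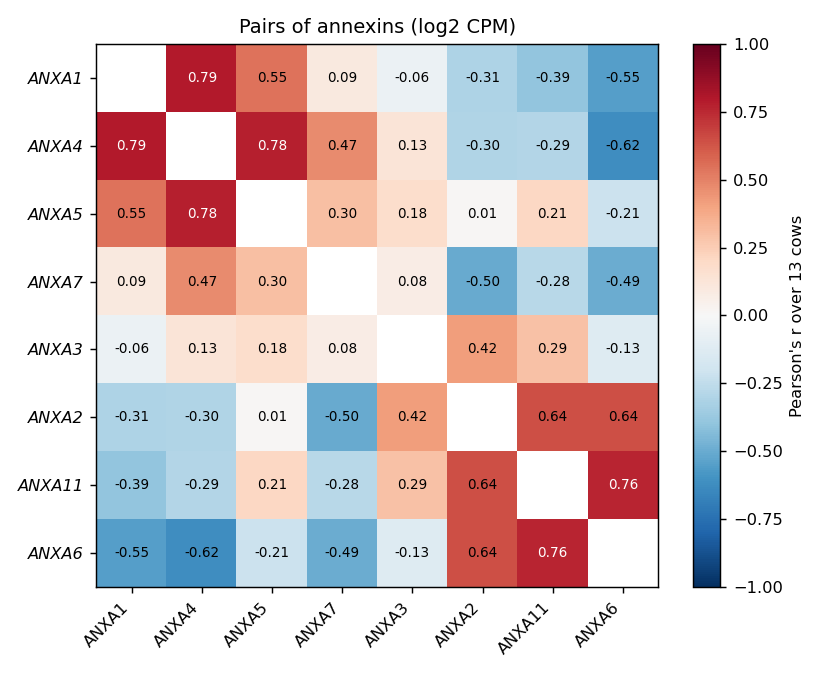
Pearson's *r* of log2 CPM for each pair of annexins over 13 cows (colour and number). *ANXA1*, *ANXA4* and *ANXA5* are positive with each other (0.55 to 0.79), as are *ANXA2*, *ANXA6* and *ANXA11* (0.64 to 0.76), and *ANXA4* with *ANXA6* is the lowest at -0.62.

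The annexins were also set beside scores of 11 lists, 9 of blood cell types and those of the glucocorticoid and interferon responses, which gives 88 relations. None passed an adjusted *p* of 0.05 in the edgeR fit over all genes, with a background of 0% for the monocyte score and 0.0181% for a negative relation to the B cell score. The smallest adjusted *p* values were 0.0969 for *ANXA4* with the B cell score and 0.0972 for *ANXA5* with the monocyte score. *ANXA5* was positively correlated with the monocyte markers (*r* = 0.87, permutation *p* = 0.00028; rho = 0.86, permutation *p* = 0.00043), at 0.68 without high-group replicates 2 and 7, 0.91 within the high group and 0.79 within the low group. High-group replicate 2 had both the highest *ANXA5* (512 CPM) and the highest monocyte score, and high-group replicate 7 had the lowest of each (262 CPM). The 7 counted of 8 monocyte markers, which include *CD14* and *CSF1R*, summed to between 788 and 1563 CPM in the high group and between 1149 and 1572 CPM in the low group, and the part of monocyte number in the *ANXA5* level was not tested. *ANXA5* was correlated with other cell scores too, at *r* = -0.69 with plasma cells (permutation *p* = 0.00752) and 0.60 with neutrophils (permutation *p* = 0.0282). It was at -0.59 with B cells (permutation *p* = 0.0345) and 0.56 with eosinophils (permutation *p* = 0.0483). By rank the neutrophil relation was weaker (rho = 0.45, permutation *p* = 0.124).

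*ANXA4* was negatively correlated with the B cell markers (*r* = -0.78, permutation *p* = 0.00182; rho = -0.77, permutation *p* = 0.00336), with -0.61 without high-group replicates 5 and 7, -0.95 within the high group and -0.56 within the low group. It was also positively correlated with the monocyte score (*r* = 0.69, permutation *p* = 0.00403; rho = 0.71, permutation *p* = 0.00803; adjusted *p* = 0.246). All 8 B cell markers were counted, and they summed to between 1810.4 and 3813 CPM in the high group and between 1876 and 3366 CPM in the low group. *ANXA1* was at -0.65 with the same score, but at -0.07 without high-group replicates 5 and 7, on which that relation rested (permutation *p* = 0.0161; rho = -0.35, permutation *p* = 0.240; adjusted *p* = 0.212). *ANXA11* was at 0.66 with the interferon score (permutation *p* = 0.0155; rho = 0.73, permutation *p* = 0.00654; adjusted *p* = 0.226), with 0.56 and 0.59 within the high and the low group. This was not particular to *ANXA11*. *ANXA6* was at 0.54 with that score (permutation *p* = 0.0538; rho = 0.64, permutation *p* = 0.0211; adjusted *p* = 0.252). *ANXA2* was at 0.44 (permutation *p* = 0.129; rho = 0.58, permutation *p* = 0.0393; adjusted *p* = 0.345). For *ANXA1*, *ANXA4*, *ANXA5* and *ANXA7* its *r* was negative. *ANXA1* showed no detectable relation to the glucocorticoid-response score (*r* = 0.0020, permutation *p* = 0.995; rho = -0.19, permutation *p* = 0.529). Of the genes on that list, *FKBP5* gave *r* = 0.58 with *ANXA1* (permutation *p* = 0.0374; rho = 0.44, permutation *p* = 0.136; adjusted *p* = 0.154), with 0.58 in each group and 0.34 without high-group replicates 5 and 7. It is 1 of the 10 genes of the list and was chosen after its values were seen, so it does not stand for the list. Another gene of the list, examined with *ANXA1* in the same way, went the opposite way (*r* = -0.23, permutation *p* = 0.453; rho = -0.32, permutation *p* = 0.280; adjusted *p* = 0.59). *FKBP5*, which encodes a chaperone partner of the glucocorticoid receptor, rose with *ANXA4* (slope 0.63, adjusted *p* = 0.0405), and this held in 4 of the 13 fits with a cow left out, being lost without high-group replicates 4 to 7 or low-group replicates 9 to 13. With *ANXA5* the glucocorticoid-response score gave *r* = 0.62 (permutation *p* = 0.0250; rho = 0.46, permutation *p* = 0.121; adjusted *p* = 0.363), falling to 0.38 without high-group replicate 7 and low-group replicate 12.

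**Figure D5:**
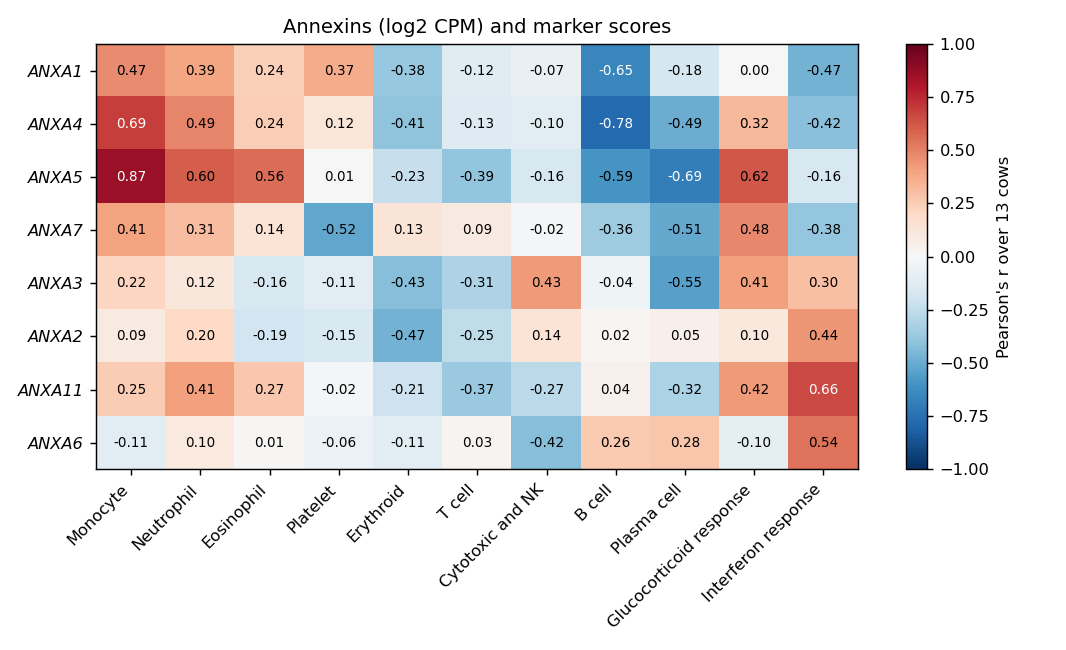
Pearson's *r* of each annexin (log2 CPM) with marker scores of 9 blood cell types and 2 responses over 13 cows (colour and number). *ANXA5* with monocyte (0.87) and *ANXA4* with B cell (-0.78) are the extremes, and *ANXA1* with the glucocorticoid response is at 0.00.

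Each annexin was finally compared with the 48 tested partner genes, those of the glucocorticoid and interferon lists included, in the same covariate fits. Of 384 relations, 34 passed an adjusted *p* of 0.05 (8.85%), against a mean of 7.19% over all genes, so the partners were called about as often as any gene. By member the counts were 10 of 48 for *ANXA11* (17.7% of all genes), 9 of 48 for *ANXA2* (17.5%), 8 of 48 for *ANXA6* (14.4%), 3 of 48 each for *ANXA7* (4.79%) and *ANXA4* (2.17%) and 1 of 48 for *ANXA1* (0.934%). All 7 calls of these last members were positive, where 4.22%, 1.54% and 0.734% of all genes were called positive. Of all genes, 0.571% were called negative with *ANXA7* and 0.199% with *ANXA1*. *ANXA3* and *ANXA5* had none (0.0272% and 0.0363%). Many of the calls rested on 1 cow: 4 of the 34 remained without high-group replicate 4 and 13 remained without low-group replicate 13.

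*PLA2G4A*, which encodes cytosolic phospholipase A2, rose with *ANXA1* (slope 1.11 log2 units per log2 unit, SE 0.22, adjusted *p* = 0.0321). Over the cows *r* was 0.82 (permutation *p* = 0.00034; rho = 0.80, permutation *p* = 0.00163), and it was 0.82 without high-group replicates 5 and 7, 0.92 within the high group and 0.83 within the low group. The correlation stayed between 0.79 and 0.86 with any cow left out, while the adjusted *p* passed in 8 of these 13 fits and reached 0.225 at most, being lost without high-group replicates 5 or 6 or low-group replicates 9, 11 or 13. *PLA2G4A* rose with *ANXA4* as well (slope 1.27, adjusted *p* = 0.0405) and fell with *ANXA2* (slope -0.94, adjusted *p* = 0.0405), but these held in 5 and 3 of the 13 fits. The former was lost without high-group replicates 4, 5 or 6 or low-group replicates 9 to 13, and the latter was kept only without high-group replicates 1, 5 or 7. As background, 1.54% of all genes were called positive with *ANXA4* and 11.6% negative with *ANXA2*, so a fall with *ANXA2* was common. The smallest adjusted *p* of *ANXA11* was with *CAPN1* (calpain 1, a calcium-activated protease), at slope 1.39 and an adjusted *p* = 0.00836, the only relation of the 34 that passed with each cow left out.

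Of the 9 tested interferon-induced genes, 5 varied with *ANXA11* (*ISG15*, *Mx1*, *MX2*, *RSAD2* and *HERC5*), all with positive slopes, where 6.93% of all genes were called positive. These 5 relations had adjusted *p* values from 0.0116 (*Mx1*) to 0.0284 (*RSAD2*), and all 5 were lost without low-group replicate 8. Without high-group replicate 4, *Mx1* still passed and the other 4 were lost. Low-group replicate 8 had the highest *ANXA11* (482 CPM) and the highest interferon score. With the group as a covariate *MX2* and *RSAD2* no longer passed (adjusted *p* = 0.0511 and 0.0601). *Mx1* varied with *ANXA6* too (slope 2.98, adjusted *p* = 0.0385), where 3.72% of all genes were called positive. That call passed in 5 of the 13 fits with a cow left out.

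Of the relations between annexins and known protein partners examined, that of *ANXA1* with *PLA2G4A* passed the adjusted threshold and the following did not. *ANXA2* and *S100A10* gave *r* = 0.61 (permutation *p* = 0.0282; rho = 0.65, permutation *p* = 0.0201; adjusted *p* = 0.0826), falling to 0.23 without high-group replicate 2 and low-group replicate 13. The relation was 0.96 within the high group and 0.27 within the low group, and the difference between the groups was not tested. *ANXA7* and *SRI* gave *r* = 0.54 (permutation *p* = 0.0546; rho = 0.56, permutation *p* = 0.0504; adjusted *p* = 0.214). *ANXA11* and *PDCD6* gave 0.39 (permutation *p* = 0.190; rho = 0.34, permutation *p* = 0.257; adjusted *p* = 0.501), and *ANXA1* with *S100A11* gave -0.11 (permutation *p* = 0.709; rho = -0.16, permutation *p* = 0.603; adjusted *p* = 0.73). S100A11 is the partner of the annexin A1 tail.

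Among all genes tested, those whose log2 CPM was most like each annexin over the 13 cows are given by Pearson's *r*, as a description. For *ANXA1* they were *FAM151B* (0.92), *SRGN* (0.91), which encodes the granule proteoglycan serglycin, and *HNRNPH2* (0.91). For *ANXA2* they were *ARHGDIA* (0.95), *ABCF2* (0.92) and *IMPDH1* (0.91). A closest gene at 0.90 or above was not particular to this abundant pair, since every annexin had one. Each value is the highest found in a search of all genes tested, so its size alone does not mark a relation. *ANXA3* was closest to *SLAMF8* (0.93), *LAP3* (0.92) and *BATF2* (0.90), an interferon-induced transcription factor, and *ANXA4* to *UAP1* (0.95), *YIPF4* (0.94) and *MDFIC* (0.93). *ANXA5* was closest to *PAPSS1* (0.93), *ITSN1* (0.91) and *MAOA* (0.90), and *ANXA6* to *DDX31* (0.95), *EPS15L1* (0.92) and *IMMT* (0.91). *ANXA7* was closest to *METAP1* (0.90), *C3orf58* (0.89) and *TMEM192* (0.89), and *ANXA11* to *CELF2* (0.96), an RNA-binding protein, *STAT6* (0.92) and *TRPC4AP* (0.92). Other annexins were left out of this search.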

How the data were processed

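RNA-seq counts of whole blood from 13 cows, 7 of the high and 6 of the low milk cortisol group as labelled, were analysed. The authors deposited counts, the whole number of reads assigned to each gene name, without normalization. The table headers give featureCounts 1.4.6-p3 with exons summed by gene name on UMD3.1 (Ensembl release 88) and no strand, pairing or multiple-mapping option. The submitters' processing notes and the methods of the study name STAR 2.7.3, Subread 1.6.5 and ARS-UCD1.2. The headers also name alignments by animal numbers that can differ from those of the tables, under a path that mentions goat, although the labels say cattle, so the labels were taken as given. Genes without a name share 1 unnamed entry of 13.9% to 16.7% of the counts, which was left out. None of the 78 pairs of libraries was identical. Positions are on UMD3.1. Some listed genes have no entry by name and were not analysed here: ANXA8, ANXA8L1, S100A6, FPR1, FPR2, FPR3, ANXA2R, PLA2G4B, MX1, OAS1Y and USP18 (*Mx1* is counted under that spelling).

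TMM factors were applied before CPM, RPKM and log2 CPM (with a prior count of 2) were derived. The groups were compared with edgeR 4.0.16 (robust quasi-likelihood fit, filterByExpr with minimum count 10 and minimum total 15, Benjamini-Hochberg over 11033 genes, threshold 0.05) in R 4.3.3. The level of an annexin, or a marker score, replaced the group as a continuous covariate for co-variation. Marker scores are means of centred log2 CPM over the tested genes of a list, those that passed the filter. Exact permutation tests used all 1716 splits of the cows or all 8192 sign flips, and correlations used 100000 resamples. Standard errors are the log2 fold change over the square root of F. The fits were tested on simulated counts with 200 genes changed. Alternatives were RLE factors, no filter, haemoglobin genes left out, a fit that is not robust, DESeq2 1.42.0, limma 3.58.1 (voom, and trend for co-variation), the neutrophil minus T cell score or the haemoglobin share as a covariate, group as a covariate and each cow left out. The monocyte score as a covariate and the alternatives for the partner relations were added after seeing the data.

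The members and all lists were chosen with earlier results of these data known. The named genes are the 8 annexins, the partner genes with the smallest or largest log2 fold change of a list or an unadjusted *p* under 0.05, and the 3 genes most alike to each annexin. *S100A10*, *ANXA9*, *ANXA10*, *ANXA13*, *PLG*, *PLAT* and the partners named for co-variation were chosen after their values were seen. Of the partner relations those described are given, and 1 partner gene is not reported here.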

Additional observations from a re-analysis of the deposited data

Results flagged for a closer look

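Each annexin was examined in each group for a cow far from the others, as the gap to the nearest cow over the range of the group (against Dixon's 95% limit for the size of the group). Of 32 comparisons in 16 groups 2 passed. Chance gives about 0.8 groups, because the limit covers both ends of a group. *ANXA3* in low-group replicate 10 was at 443 CPM while the other low-group cows lay between 253 and 299 CPM (gap over range 0.757). Without this cow the log2 fold change of *ANXA3* was 0.024, a change of sign. *ANXA7* in high-group replicate 4 was at 78.1 CPM while the other high-group cows lay between 44.3 and 58.2 CPM (gap over range 0.589). Without it the log2 fold change of *ANXA7* was 0.046. That cow was also an end of the main axis of variation.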

How the results depend on the processing

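No annexin passed an adjusted or an unadjusted *p* of 0.05 between the groups under any of the alternatives run. DESeq2 called 1 gene of 14346 (348 at an unadjusted *p* below 0.05), and the edgeR count of 231 unadjusted genes was 414 without the filter, 120 with the haemoglobin covariate and 373, 363 and 345 without high-group replicates 2 and 5 and low-group replicate 9. Some log2 fold changes changed sign. *ANXA1* was -0.0050 with limma-voom and -0.0099 as a difference of means, and the haemoglobin covariate gave 0.085 for *ANXA3* and 0.13 for *ANXA2*, whose log2 fold change was the largest of the family in size. With each cow left out in turn, *ANXA1* ranged from -0.050 to 0.14, *ANXA3* from -0.19 to 0.024, *ANXA4* from -0.055 to 0.11 and *ANXA5* from -0.0031 to 0.15, while *ANXA2*, *ANXA6* and *ANXA11* stayed negative and *ANXA7* positive. The cause was not tested.

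Annexin pairs passing both ways were 1 with limma-trend (*ANXA1* and *ANXA4*), 2 with the monocyte covariate (*ANXA2* and *ANXA6*, *ANXA6* and *ANXA11*) and 0 to 2 with a cow left out, being 1 without high-group replicates 1 or 3 or low-group replicate 10 and 2 without high-group replicate 2. Score relations were 0 to 1, with *ANXA4* and the B cell score passing without low-group replicate 13. The 34 partner relations were 22 with group as a covariate and 6 to 42 with a cow left out, 6 without high-group replicate 4 and 18 without low-group replicate 13. The number of differing steps in the order of levels was 5 in every alternative, but without division by length the order of *ANXA3* and *ANXA5* turned. With 7 against 6 cows, changes within the 95% intervals given were not excluded. No paired analysis was possible because the replicate numbers of the groups do not overlap.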
